A study of Mus musculus with 35 samples.

Results

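The fibroblast growth factor (FGF) and ERK pathway was followed through 8 genes, which are 8 rows of an RNA-seq table of 26127 genes from mouse embryonic stem cells (ESCs) after deletion of *Dnmt1*. The rows were chosen by gene symbol. They were the ligand gene *Fgf4*, the feedback inhibitor genes *Dusp6*, *Spry2* and *Spry4*, the transcription factor genes *Etv4*, *Etv5* and *Egr1*, and *Epha2*, which encodes an ephrin receptor. Cells carried *Dnmt1* loxP/loxP alleles, and Cre was induced with tamoxifen to remove the gene of the maintenance DNA methyltransferase. The methods do not state whether control cultures received tamoxifen. Effects of the drug and of Cre therefore cannot be told apart from those of *Dnmt1* loss. WT (control) and KO cultures were sampled at days 0, 1, 3, 6, 9, 11, 17 and 25, with 2 libraries for each genotype and day and 3 at day 1. One further library came from constitutive *Dicer* KO cells, made in the *Dnmt1* loxP/loxP background by CRISPR/Cas9, which lack the nuclease that processes microRNAs. The labels give the background as E14 and the study's methods name C57BL/6 ESCs. All libraries hold rRNA-depleted total RNA of ESCs grown in medium with serum and LIF, with or without feeder cells. Nothing states that the 2 libraries of a group came from separate cultures, so p-values measure only the spread between these libraries.

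FGF4 secreted by ESCs binds FGF receptors and switches on RAS, RAF, MEK and ERK. ERK then induces its own brakes, the sprouty proteins and the phosphatase DUSP6, together with ETS family and early response transcription factors, so the RNA of these targets is widely used as a readout of the pathway. In ESCs, FGF and ERK signaling moves cells out of the naive state, and blocking MEK helps to keep them in it.

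Because *Dnmt1* maintains methylation at CpG dinucleotides, the promoters of 3 genes that were lower together in KO are shown with their CpGs. They are the 250 bases upstream of the start site in RefSeq (GRCm38.p6), written 5′ to 3′ on the strand of the gene, with CpG in capitals.
*Dusp6*, chr10:99262981-99263230, plus strand: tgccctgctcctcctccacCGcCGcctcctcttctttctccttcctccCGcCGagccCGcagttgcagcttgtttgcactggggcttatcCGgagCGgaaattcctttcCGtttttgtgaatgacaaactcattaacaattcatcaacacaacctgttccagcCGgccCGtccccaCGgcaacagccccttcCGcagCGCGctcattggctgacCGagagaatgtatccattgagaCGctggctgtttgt
*Spry2*, chr14:105896820-105897069, minus strand: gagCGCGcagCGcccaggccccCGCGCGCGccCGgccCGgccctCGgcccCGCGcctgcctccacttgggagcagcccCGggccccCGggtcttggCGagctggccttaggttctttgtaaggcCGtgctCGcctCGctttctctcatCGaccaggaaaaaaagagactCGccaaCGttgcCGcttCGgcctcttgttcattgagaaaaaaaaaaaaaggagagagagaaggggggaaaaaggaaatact
*Epha2*, chr4:141300971-141301220, plus strand: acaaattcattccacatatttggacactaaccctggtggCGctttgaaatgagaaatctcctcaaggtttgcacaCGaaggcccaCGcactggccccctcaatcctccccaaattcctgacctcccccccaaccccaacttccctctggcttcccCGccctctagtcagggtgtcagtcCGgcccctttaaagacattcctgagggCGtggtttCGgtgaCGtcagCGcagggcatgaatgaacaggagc
These stretches hold 16, 23 and 9 CpGs. In the full windows of 300 bases, which add 50 bases after the start, *Dusp6* had 19 CpGs, *Spry2* 28, *Epha2* 10 and *Fgf4* 28, against a median of 7 over 32851 mouse promoter windows. *Etv5* has 2 windows, with 37 and 19 CpGs. The CpG ratio, observed over expected from base content, was 0.46 in *Epha2*, the lowest of these windows, and 0.951 in *Spry2*, the highest. CpG content thus differed among these windows, and its part in the differences between KO and WT was not tested. Of the ETS motif CCGGAAGT, the EGR motif GCGGGGGCG, the CRE motif TGACGTCA, the AP-1 motif TGANTCA and the CArG box, searched on both strands, only the CRE was found, in *Epha2* from base -33 to base -26 relative to the start. Over all windows these motifs were present in 3.89%, 2.91%, 1.79%, 7.81% and 1.63%.

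Libraries had between 5.10 and 17.5 M (mega) reads in exons of genes. This was between 20.2% and 22.02% of all reads in 20 libraries and between 44.2% and 48.9% in 15, namely the third pair of day 1, days 11, 17 and 25 and *Dicer* KO. The share follows the day, so a change of level between early and late days cannot be told apart from it, whereas KO and WT of a day, or of a pair at day 1, fell in the same of these 2 ranges. Within the high range the share at day 25 was 44.18% and 44.63% in WT and 48.86% and 48.41% in KO, and its part in the day 25 results was not tested. *Dnmt1* RNA was between 2.58 and 4.40 RPKM (reads per kilobase of exon and per M reads) in KO at days 3, 9, 11, 17 and 25 and between 14.1 and 34.8 RPKM in WT. In WT of day 25 this RNA was at 34.8 and 31.6 RPKM, and in WT of days 3, 9, 11 and 17 at most 19.9 RPKM. At day 6 it was between 3.22 and 3.40 RPKM in the libraries labelled WT and between 20.2 and 20.4 RPKM in those labelled KO. *Dnmt1* thus went against the labels of all 4 libraries of day 6, and this day was left out of the mean over days. *Dicer1* RNA was 4.01 RPKM in the *Dicer* KO library, within the 3.90 to 8.57 RPKM of 7 WT libraries, so its level does not check that label. All 10 ESC markers, among them *Pou5f1* and *Sox2*, were detected in every group.

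Of the 8 genes, 7 were above 1 RPKM in all 34 WT and *Dnmt1* KO libraries. *Egr1* passed the filter (above 1 RPKM in at least 2 libraries) only through the 2 WT libraries of day 25, so its day 25 values are described without being used as support. In NCBIM37, *Fgf4* (ENSMUSG00000050917.4) lies on chromosome 7 from 152047291 to 152051148 on the plus strand, and *Dusp6* (ENSMUSG00000019960.6) on chromosome 10 from 98725865 to 98730122 on the plus strand. *Spry2* (ENSMUSG00000022114.4) lies on chromosome 14 from 106291166 to 106296036 on the minus strand, and *Spry4* (ENSMUSG00000024427.6) on chromosome 18 from 38745922 to 38760922 on the minus strand. *Etv4* (ENSMUSG00000017724.8) lies on chromosome 11 from 101631056 to 101646685 and *Etv5* (ENSMUSG00000013089.8) on chromosome 16 from 22381382 to 22439792, both on the minus strand. *Egr1* (ENSMUSG00000038418.6) lies on chromosome 18 from 35020861 to 35024638 and *Epha2* (ENSMUSG00000006445.3) on chromosome 4 from 140857155 to 140885299, both on the plus strand. Values cover all exons of a gene. Of these genes, only *Egr1* overlaps another annotated gene, *Gm17507* on the minus strand, which was listed at 0 in every library. Whether reads were counted by strand is not given, so *Egr1* is uncertain to that extent.

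The first comparison asked how the 8 genes differed between KO and WT over the course of deletion. The 3 feedback inhibitors and *Epha2* were lower in KO, and their differences stood at their largest at day 25. In the mean over days 3, 9, 11, 17 and 25, *Spry4* fell by 1.05 on the log2(RPKM + 0.1) scale (SE 0.12, limma adjusted p 8.9e-08), *Spry2* by 0.64 (SE 0.04), *Epha2* by 0.47 (SE 0.04), *Dusp6* by 0.44 (SE 0.05) and *Fgf4* by 0.26 (SE 0.03). *Etv5* rose by 0.23 (SE 0.07, limma adjusted p 0.0099). *Etv4* had a difference of -0.07 (limma adjusted p 0.064) and *Egr1* of -0.16 (limma adjusted p 0.33), and neither passed the test. The *Egr1* value was -0.31 (limma adjusted p 0.014) without KO replicate 2 of day 11, -0.02 without KO replicate 1, and 0.26 (limma adjusted p 0.16) without day 25. So 5 of 8 genes were called lower and 1 higher, where 20.4% of the 11615 genes tested were called lower and 37.4% higher. The median difference was -0.35 over the 8 genes and 0.06 over all genes. The model had a term for the third day 1 pair, and without it *Fgf4*, *Spry2* and *Epha2* alone were called, all lower (limma adjusted p 0.042, 0.024 and 0.0037). In bulk RNA, fewer cells of a type and less RNA per cell cannot be told apart.

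**Figure D1:**
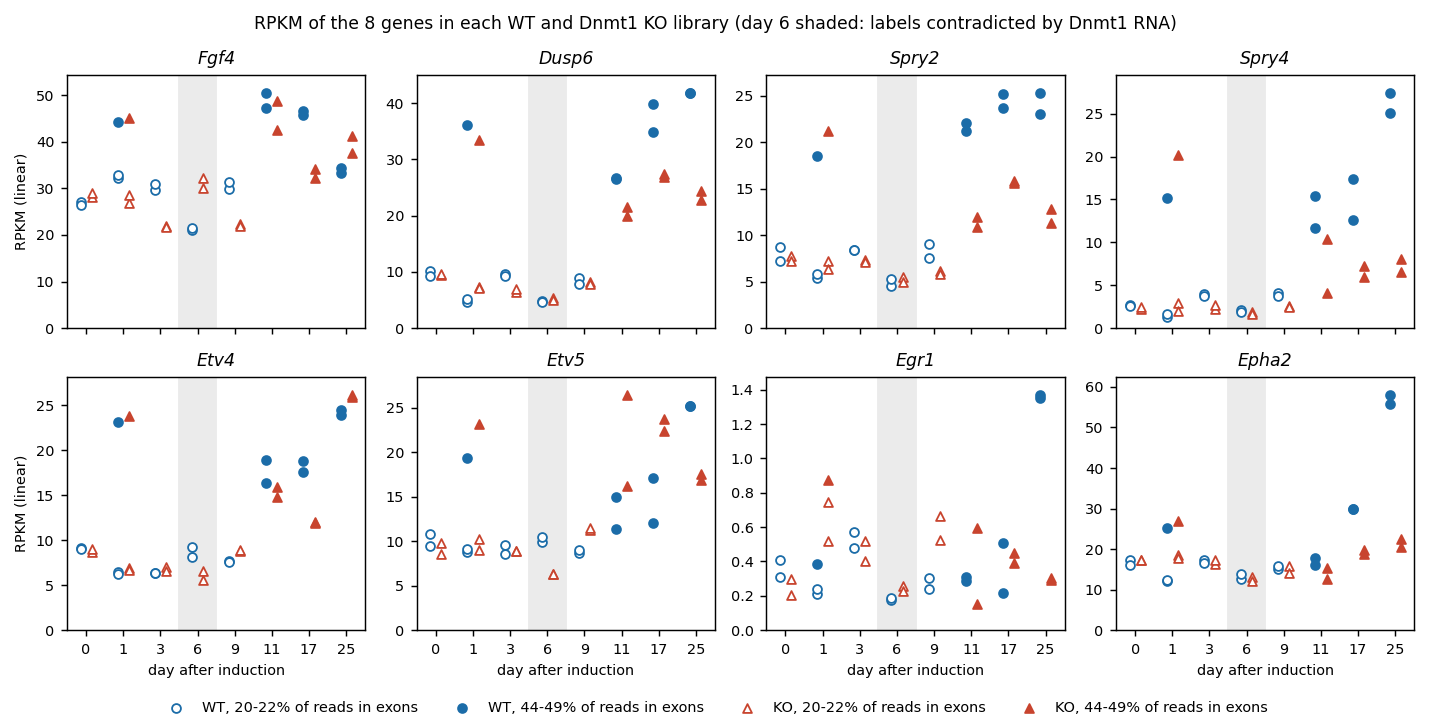
RPKM (linear axis) of each gene in every WT (blue circles) and *Dnmt1* KO (red triangles) library against the day after induction. Open symbols are libraries with between 20.2% and 22.02% of reads in gene exons and filled symbols those with between 44.2% and 48.9%, and day 6 is shaded. At day 25 the WT points of *Spry4*, *Egr1* and *Epha2* stand above all other libraries in the plot.

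**Figure D2:**
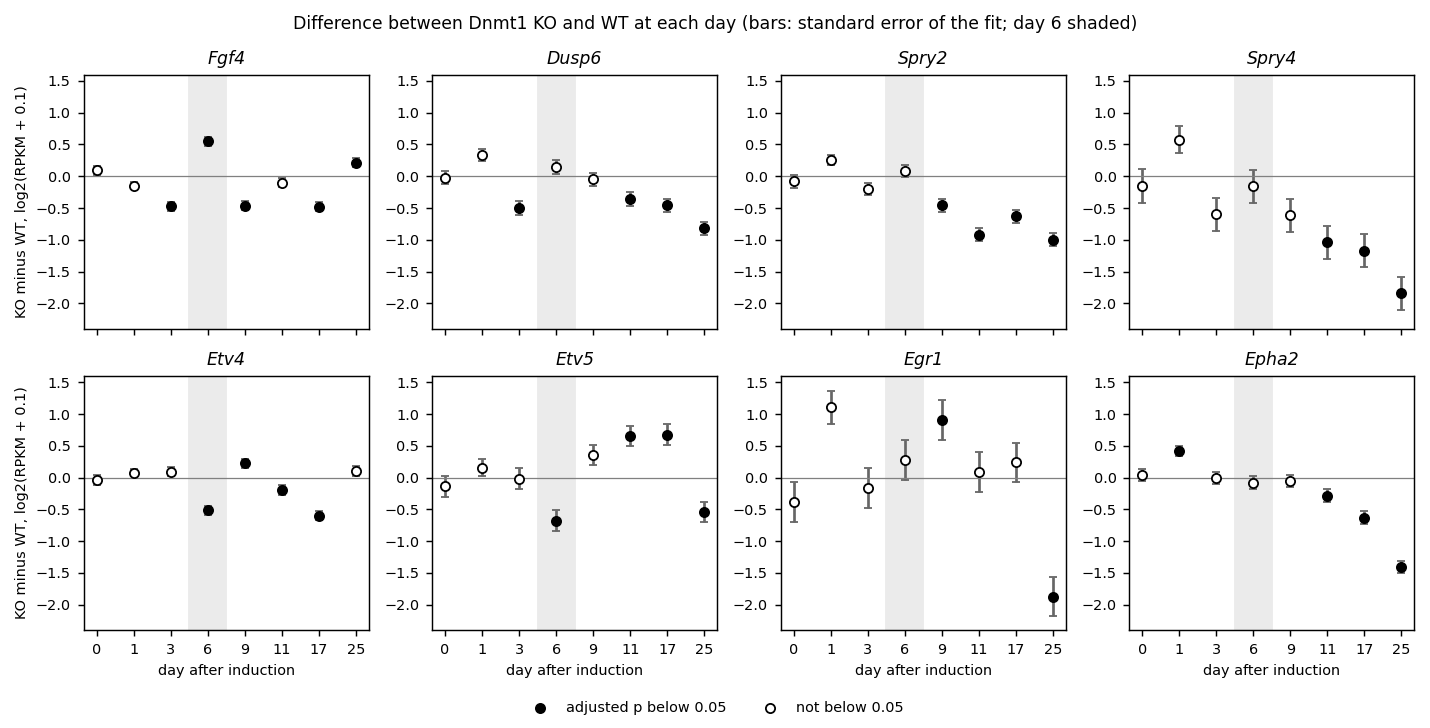
KO minus WT on the log2(RPKM + 0.1) scale for each gene and day, with the standard error of the limma fit as bars. Filled points have an adjusted p below 0.05. *Dusp6*, *Spry2*, *Spry4* and *Epha2* lie below 0 at days 11, 17 and 25, and *Etv5* lies above 0 at days 11 and 17 and below 0 at day 25.

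*Fgf4*, whose protein is the main FGF ligand that ESCs make, was lower in KO at 3 days. At day 3 it had 29.8 and 31.0 RPKM in WT and 21.97 and 21.7 RPKM in KO. At day 9 it had 30.0 and 31.5 RPKM in WT and 22.4 and 22.01 RPKM in KO. At day 17 it had 46.6 and 45.9 RPKM in WT and 32.2 and 34.1 RPKM in KO. The groups did not overlap at these days, and the log2 difference was -0.48, -0.47 and -0.48 (SE 0.07 each, limma adjusted p 0.00011, 4.5e-05 and 1.3e-05). At day 11 the libraries overlapped, with 50.4 and 47.3 RPKM in WT and 48.7 and 42.5 RPKM in KO (log2 difference -0.10, limma adjusted p 0.28). The difference passed the test without KO replicate 1 (-0.20, limma adjusted p 0.036) and after median centring (-0.22, limma adjusted p 0.035). At day 25 the order was the opposite, with 34.4 and 33.4 RPKM in WT and 41.2 and 37.6 RPKM in KO (log2 difference 0.22, SE 0.07, limma adjusted p 0.012). That call was lost without KO replicate 1 (0.15, limma adjusted p 0.15) or WT replicate 2 (0.19, limma adjusted p 0.069). At day 6 the libraries labelled WT had 21.0 and 21.4 RPKM, close to the KO libraries of days 3 and 9, and those labelled KO had 32.3 and 30.1 RPKM. With day 6 taken as labelled, against *Dnmt1* RNA, the mean over days became -0.13 (limma adjusted p 0.0013).

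*Dusp6* encodes the cytoplasmic phosphatase that removes phosphate from ERK. At day 3 it had 9.67 and 9.25 RPKM in WT and 6.39 and 6.93 RPKM in KO. At day 17 it had 39.9 and 34.9 RPKM in WT and 27.4 and 26.9 RPKM in KO. At day 25 it had 41.8 and 41.7 RPKM in WT and 24.3 and 22.9 RPKM in KO. KO libraries lay below WT libraries at each of these days and at day 11, and the log2 differences of days 3, 11, 17 and 25 were -0.50, -0.35, -0.46 and -0.82 (SE 0.11 each). The limma adjusted p was 0.0037, 0.015, 0.0017 and 1.3e-06. At day 9 the libraries overlapped, with 8.86 and 7.80 RPKM in WT and 8.22 and 7.83 RPKM in KO. The day 3 call was lost without KO replicate 1 (limma adjusted p 0.057), and the day 11 call without WT replicate 1 (0.073), WT replicate 2 (0.054) or KO replicate 2 (0.089).

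*Spry2* encodes a sprouty protein that restrains signaling from receptor tyrosine kinases. At day 11 it had 21.2 and 22.1 RPKM in WT and 10.8 and 11.98 RPKM in KO. At day 17 it had 23.7 and 25.16 RPKM in WT and 15.8 and 15.6 RPKM in KO. At day 25 it had 23.0 and 25.24 RPKM in WT and 12.8 and 11.3 RPKM in KO. KO libraries were thus well below WT at all 3 late days, with log2 differences of -0.92, -0.63 and -0.997 (SE 0.10 each, limma adjusted p 1.9e-07, 1.8e-05 and 2.1e-08). At day 9, with 9.06 and 7.56 RPKM in WT and 6.17 and 5.82 RPKM in KO, the difference was -0.46 (limma adjusted p 0.0012). At day 3 it was -0.20 (limma adjusted p 0.21), and it passed with only the groups of day 3 in the fit (limma adjusted p 0.029). The calls of days 9, 11, 17 and 25 were kept without each library of the day in turn.

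*Spry4*, the other sprouty gene, showed the largest mean difference of the 8. At day 17 it had 12.6 and 17.4 RPKM in WT and 7.20 and 5.91 RPKM in KO. At day 25 it had 27.4 and 25.14 RPKM in WT and 8.01 and 6.54 RPKM in KO. The groups were far apart at both days, and the log2 difference was -1.17 at day 17 (SE 0.26, limma adjusted p 0.0011) and -1.84 at day 25 (SE 0.26, limma adjusted p 3.3e-06). At day 11 WT had 11.7 and 15.4 RPKM and KO had 4.04 and 10.4 RPKM. The 2 KO libraries of day 11 differed by more than the gap between the groups, and the difference of -1.04 (limma adjusted p 0.0038) became -0.37 (limma adjusted p 0.15) without KO replicate 1 and -0.84 (limma adjusted p 0.054) without WT replicate 2. Without KO replicate 2 it was -1.71. At days 3 and 9 KO lay below WT in every library, between 2.26 and 2.73 RPKM against between 3.69 and 4.07 RPKM, and neither day passed the test (log2 differences -0.60 and -0.61, limma adjusted p 0.16 and 0.087). With only the groups of the day in the fit, the SE was 0.10 at day 3 and 0.07 at day 9. Both days then passed (limma adjusted p 0.012 and 0.0014).

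*Etv4* and *Etv5* encode PEA3-type ETS factors that ERK signaling induces, and they did not move together. *Etv5* at day 11 had 11.4 and 14.97 RPKM in WT and 16.2 and 26.4 RPKM in KO. At day 17 it had 12.02 and 17.14 RPKM in WT and 23.7 and 22.3 RPKM in KO. At day 25 WT had 25.16 and 25.22 RPKM and KO had 17.6 and 16.9 RPKM. KO was therefore higher at days 11 and 17 and lower at day 25, with log2 differences of 0.66, 0.68 and -0.55 (SE 0.16 each, limma adjusted p 0.0029, 0.0017 and 0.0050). Without KO replicate 1 of day 11 the difference was 1.01. The day 11 call was lost without KO replicate 2 (0.31, limma adjusted p 0.12) or WT replicate 1 (0.46, limma adjusted p 0.081), and the day 17 call without WT replicate 1 (0.42, limma adjusted p 0.071). With day 6 taken as labelled, against *Dnmt1* RNA, the mean over days of *Etv5* was 0.08 (limma adjusted p 0.35). After centring each library on its median it was 0.15 (limma adjusted p 0.059).

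*Etv4* was lower in KO at day 17, with 18.8 and 17.5 RPKM in WT and 12.1 and 11.9 RPKM in KO (log2 difference -0.60, SE 0.07, limma adjusted p 1.1e-06). At day 25 it had 24.5 and 23.95 RPKM in WT and 25.97 and 26.1 RPKM in KO, and the difference of 0.10 did not pass the test (limma adjusted p 0.23). Differences of 0.22 at day 9 and -0.19 at day 11 passed narrowly (limma adjusted p 0.030 and 0.049). The day 9 call was lost without any 1 of its libraries (limma adjusted p between 0.086 and 0.14). The day 11 call was lost without WT replicate 2 (-0.09) or KO replicate 2 (-0.14), and the difference was -0.30 without WT replicate 1. In the mean over days *Etv4* passed the test after median centring (-0.15, limma adjusted p 0.00062) and with day 6 as labelled (-0.15, limma adjusted p 0.0004155). *Dnmt1* RNA went against the labels of day 6, so the second value is not used as support for a lower level. Of the 8 genes, *Etv4* and *Etv5* both had a lower level in the libraries labelled KO at day 6 (log2 differences -0.52 and -0.68, limma adjusted p 1.9e-05 and 0.0030).

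*Egr1*, an early response gene that ERK induces through serum response factor, was low throughout, between 15 and 126 reads in a library. In WT it was between 0.178 and 0.571 RPKM at every day before day 25. At day 25 it had 1.35 and 1.37 RPKM in WT and 0.303 and 0.295 RPKM in KO. This separation is also what brought the gene into the tested set. The log2 difference was -1.87 (SE 0.31), and the pseudocount of 0.1 RPKM understates changes at this level. At day 9 KO was higher, with 0.666 and 0.526 RPKM against 0.306 and 0.239 RPKM in WT (log2 difference 0.90, SE 0.31, limma adjusted p 0.036), a call that was lost without any 1 of the 4 libraries (limma adjusted p between 0.066 and 0.21). At day 1 all 3 KO libraries, between 0.519 and 0.874 RPKM, lay above the 3 WT libraries, between 0.211 and 0.385 RPKM (log2 difference 1.103, limma adjusted p 0.090).

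*Epha2* encodes a receptor tyrosine kinase for ephrin A ligands and is itself switched on by ERK signaling in many cells. At day 11 it had 16.1 and 17.8 RPKM in WT and 12.7 and 15.2 RPKM in KO. At day 17 it had 29.8 and 29.9 RPKM in WT and 18.8 and 19.7 RPKM in KO. At day 25 it had 57.9 and 55.9 RPKM in WT and 22.6 and 20.4 RPKM in KO. The gap widened with each of these days, with log2 differences of -0.28, -0.63 and -1.40 (SE 0.10 each, limma adjusted p 0.028, 1.8e-05 and 9.5e-11). Before day 11 levels in both genotypes stayed between 12.02 and 18.5 RPKM, apart from the third pair of day 1 at 25.22 and 27.0 RPKM. Without day 25 the mean over days was -0.24 (limma adjusted p 0.00023). The day 11 call was lost without WT replicate 2 (-0.21) or KO replicate 1 (-0.15).

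Calls of the 8 genes are set against calls among all genes as follows. At day 0, before deletion, none of the 8 genes was called and the share of all genes was 0% (242 genes had an unadjusted p below 0.05 in limma). At day 3, *Fgf4* and *Dusp6* were called lower, where 3.81% of all genes were called lower and 7.4% higher. At day 9, *Fgf4* and *Spry2* were called lower (10.5% of all genes) and *Etv4* and *Egr1* higher (16.7%). At day 11, 5 genes were called lower (12.3%) and *Etv5* higher (22.7%). With only the 2 groups of day 11 in the fit, *Spry2* alone of those 6 was called. At day 17, 6 genes were called lower (11.4%) and *Etv5* higher (28.9%). At day 25, 5 genes besides *Egr1* were called lower (25.9%) and *Fgf4* higher (39.4%), and the median over all genes was itself 0.13. At day 6, by the labels, *Etv4* and *Etv5* were called lower (18.5%) and *Fgf4* higher (8.61%). Without the term for the third day 1 pair, *Egr1* and *Epha2* alone were called at day 25 and none of the 8 genes at days 3, 6, 9, 11 and 17. After centring each library on its median, 5.73% of all genes were lower and 5.72% higher for day 3. The same shares were 13.3% and 13.4% for day 6 and 13.6% and 13.4% for day 9. With this centring, 20.4% of all genes were called lower and 14.8% higher at day 11, 25.6% and 17.5% at day 17, and 31.6% and 26.2% in the mean over days.

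At day 1, *Dnmt1* RNA in KO was between 2.86 and 8.13 RPKM. *Epha2* was the 1 gene called, higher in KO (log2 difference 0.41, SE 0.08, limma adjusted p 0.032), where 0.121% of all genes were called higher and 0.0258% lower. Its first 2 libraries had 12.1 and 12.3 RPKM in WT and 18.5 and 17.8 RPKM in KO, and the third pair had 25.22 and 27.0 RPKM. Among replicates 1 and 2 alone the difference was 0.57 (limma adjusted p 0.0010), and in the third pair it was 0.10. *Dusp6* likewise had 4.72 and 5.09 RPKM in WT and 7.33 and 7.16 RPKM in KO in replicates 1 and 2 (log2 difference 0.55, limma adjusted p 0.00062), and 36.1 RPKM in WT and 33.5 RPKM in KO in the third pair. Within that pair the difference was -0.11, and the fit with all 3 pairs gave 0.33 (limma adjusted p 0.14). For both genes KO was higher in the first 2 pairs and close to WT in the third, a difference between pairs that was not tested. The *Epha2* call was lost without any 1 of the 4 libraries of replicates 1 and 2 (limma adjusted p between 0.12 and 0.20).

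In 4 of the 8 genes the third day 1 pair stood well further from the other libraries of its day than the median gene did. In WT, *Spry4* had 1.295 and 1.64 RPKM in replicates 1 and 2 and 15.2 RPKM in replicate 3. On the log2 scale replicate 3 was higher by 3.30 for *Spry4*, 2.85 for *Dusp6*, 1.85 for *Etv4* and 1.71 for *Spry2*, against a median of 1.01 over all genes. *Fgf4* was higher by 0.44 and *Egr1* by 0.57. KO replicate 3 showed the same order at the top, with 3.05 for *Spry4* and 2.19 for *Dusp6*. With 1 library on one side these are values with no test, and what sets the third pair apart was not tested.

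The second comparison concerned day 25. It asked whether each genotype differed from its own days 11 and 17, which are libraries in the same high range of gene-read share. In WT, 5 genes besides *Egr1* rose (35.1% of all genes were called higher) and *Fgf4* fell by 0.49 (33.3% of all genes were called lower). *Epha2* rose by 1.34 (SE 0.08, limma adjusted p 2.2e-11), *Spry4* by 0.89 (SE 0.23, limma adjusted p 0.0014), *Etv5* by 0.87 (SE 0.14, limma adjusted p 9.1e-06), *Etv4* by 0.44 (SE 0.06, limma adjusted p 4.0e-06) and *Dusp6* by 0.41 (SE 0.09, limma adjusted p 0.00061). *Egr1*, subject to the limit above, rose by 1.81. *Spry2* had a difference of 0.07 (limma adjusted p 0.47). After median centring, 28.3% of all genes were called higher and 41.7% lower. Without the term for the third day 1 pair the calls were *Epha2*, *Etv5* and *Egr1* higher and *Fgf4* lower. In WT the median was 0.66 over the 8 genes, with *Egr1* included, and 0.00 over all genes. Without *Egr1* the middle value was the 0.44 of *Etv4*.

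In KO the same comparison gave fewer calls. *Etv4* rose by 0.93 (SE 0.06, limma adjusted p 1.9e-10) and *Epha2* by 0.39 (SE 0.08, limma adjusted p 0.00064), where 24.8% of all genes were called higher. *Etv5* fell by 0.34 (limma adjusted p 0.048), where 23% of all genes were called lower, a call that was lost without any 1 of 5 of the 6 libraries (limma adjusted p between 0.060 and 0.24). The difference of *Etv5* was -0.16 without KO replicate 2 of day 11 and -0.51 without replicate 1. None of these 3 calls was made without the term for the third day 1 pair. *Fgf4*, *Dusp6*, *Spry2*, *Spry4* and *Egr1* had differences between -0.23 and 0.15 and were not called. For *Spry4* and *Egr1* this rested on both KO libraries of day 11 being included. *Spry4* had 0.49 (limma adjusted p 0.014) without replicate 2 and -0.18 without replicate 1, and *Egr1* had -0.59 (limma adjusted p 0.021) without replicate 1 and 0.14 without replicate 2. The median was 0.01 over the 8 genes and 0.00 over all genes.

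**Figure D3:**
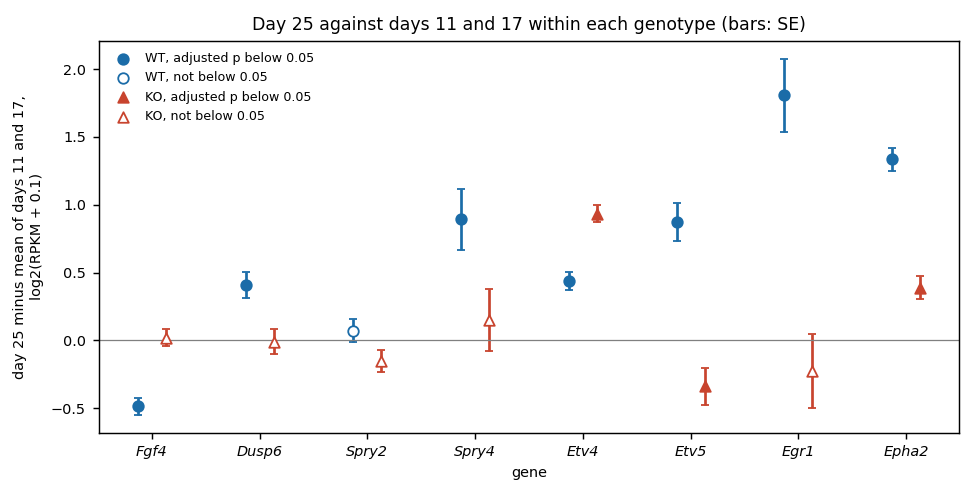
Day 25 minus the mean of days 11 and 17 on the log2(RPKM + 0.1) scale, in WT (blue circles) and KO (red triangles), with standard errors of the limma fit as bars and filled symbols for an adjusted p below 0.05. WT values run from -0.49 for *Fgf4* to 1.81 for *Egr1*, and KO values from -0.34 for *Etv5* to 0.93 for *Etv4*.

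The KO effect at day 25 was then tested directly against the mean KO effect of days 11 and 17. On the log2 scale, it was lower at day 25 for *Epha2* by 0.95 (SE 0.12, limma adjusted p 1.1e-06), for *Etv5* by 1.21 (SE 0.20, limma adjusted p 2.1e-05), and for *Dusp6* by 0.42 (SE 0.13, limma adjusted p 0.010), where 30.5% of all genes were called lower. The *Dusp6* value became 0.26 lower (limma adjusted p 0.11) after median centring and 0.37 lower (limma adjusted p 0.051) without KO replicate 2 of day 25. *Egr1*, subject to the limit above, was lower by 2.03. The effect was higher for *Fgf4* by 0.51 and for *Etv4* by 0.50 (limma adjusted p 4.6e-05 and 8.3e-05), where 30.2% of all genes were called higher. After median centring 39% of all genes were called higher and 24.1% lower, and without the term for the third day 1 pair only *Egr1* and *Epha2* passed. *Spry4* (-0.74, SE 0.32, limma adjusted p 0.0504) and *Spry2* (-0.22, SE 0.12, limma adjusted p 0.11) did not pass. *Spry4* passed under limma's voom on recovered reads (limma adjusted p 0.031) and without KO replicate 1 of day 11 (-1.076, limma adjusted p 0.00015). Without KO replicate 2 of day 11 it was -0.41 (limma adjusted p 0.11).

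Markers of other cell states also differed between KO and WT, though not all at the same days as the 8 genes. Of 6 primed epiblast markers in the table, 3 of the 4 tested were lower in KO at day 25. Their summed level was between 60.1 and 61.7 RPKM in WT and between 30.3 and 30.6 RPKM in KO at day 25, between 52.2 and 56.6 RPKM in WT and between 27.9 and 29.1 RPKM in KO at day 17, and between 19.2 and 21.5 RPKM in WT and between 19.2 and 30.2 RPKM in KO at day 11. *Dnmt3b* made up most of this sum at day 25. Of the 10 ESC markers, 6 were called higher and 2 lower in KO at day 25, and 3 higher and 4 lower in the mean over days. At day 25 the naive state factor *Nanog* was between 30.7 and 32.7 RPKM in WT and between 144 and 155 RPKM in KO, whereas *Utf1* was between 36.1 and 39.8 RPKM in WT and between 18.8 and 19.6 RPKM in KO and *Sall4* between 35.7 and 38.9 RPKM in WT and between 11.3 and 13.995 RPKM in KO. The sum of 8 trophoblast markers was between 298 and 307 RPKM in KO and between 61.7 and 72.1 RPKM in WT at day 17, and between 47.9 and 50.8 RPKM and between 45.0 and 45.6 RPKM at day 25. In the mean over days all 6 trophoblast markers tested and 5 of 7 fibroblast markers tested were higher in KO. The part of these shifts in the results on the 8 genes was not tested. Fibroblast markers summed to between 2.23 and 2.49 RPKM in WT and between 1.81 and 2.25 RPKM in KO at day 25, and primitive endoderm markers to between 6.34 and 6.79 RPKM and between 6.28 and 6.31 RPKM. Of 5 primitive endoderm markers tested, 3 were called lower in KO at day 25 and 3 higher in the mean over days. Marker counts are to be read against all genes, of which 39.4% were called higher and 25.9% lower at day 25. In the mean over days these shares were 37.4% and 20.4%. The sums of 5 mesoderm and 4 neural markers were at most 4.17 RPKM in the libraries of days 9, 11, 17 and 25.

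The rest of the pathway was read from a list of 69 further genes, of which 51 passed the filter. In the mean over days 26 were called higher and 10 lower, and at day 25 the counts were 9 higher and 17 lower. Of all genes tested, 37.4% were called higher and 20.4% lower in the mean over days, and 39.4% and 25.9% at day 25. Their median difference was 0.16 in the mean over days (0.06 over all genes) and -0.11 at day 25 (0.13 over all genes). At day 11, 26 were called higher and 4 lower, and at day 17, 22 and 6, against shares of all genes of 22.7% and 12.3% for day 11 and of 28.9% and 11.4% for day 17. Nothing particular to the pathway was read from these counts or from those of the roles below.

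**Figure D4:**
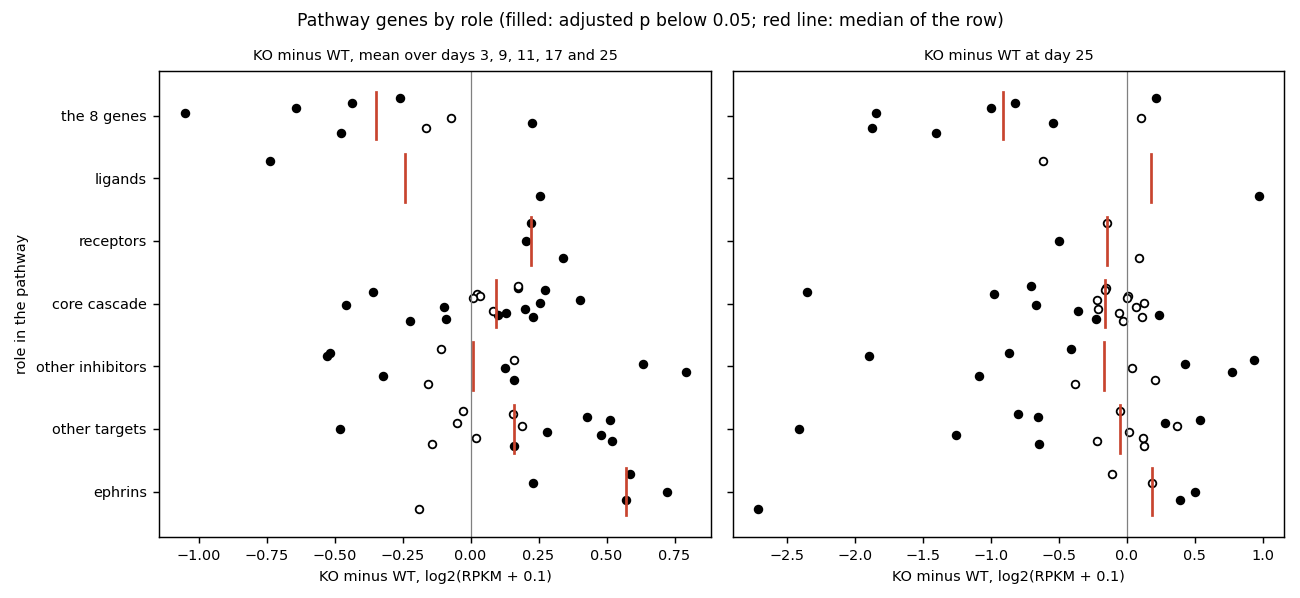
KO minus WT on the log2(RPKM + 0.1) scale for each tested gene, by role, in the mean over days (left) and at day 25 (right). Filled points have an adjusted p below 0.05 and red lines mark the median of each role. The median of the 8 genes, with *Egr1* included, is -0.35 on the left and -0.91 on the right. Without *Egr1* the middle value on the right is the -0.82 of *Dusp6*.

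Among ligands, only *Fgf15* and *Fgf17* passed the filter. *Fgf15* fell by 0.74 in the mean over days (SE 0.13, limma adjusted p 4.8e-05). *Fgf17* rose by 0.97 at day 25 (SE 0.13, limma adjusted p 1.1e-06), with 2.23 and 2.33 RPKM in the WT libraries and 4.55 and 4.601 RPKM in the KO libraries. All 3 receptor genes tested rose in the mean over days, *Fgfr1* by 0.22, *Fgfr2* by 0.20 and *Fgfrl1* by 0.34, and at day 25 *Fgfr2* fell by 0.50 (SE 0.11, limma adjusted p 0.00058). *Fgfr3* and *Fgfr4* stayed below the filter. In the mean over days the receptor calls were opposite in direction to those of the feedback inhibitors, where 37.4% of all genes were called higher and 20.4% lower. At day 25 *Fgfr1* and *Fgfrl1* had differences of -0.15 and 0.09 and were not called.

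Of 18 core cascade genes tested, 8 rose and 5 fell in the mean over days, and 1 rose and 6 fell at day 25, where 37.4% of all genes rose and 20.4% fell in the mean and 39.4% rose and 25.9% fell at day 25. *Gab1*, a docking protein that links receptors to SHP2, was between 22.9 and 24.4 RPKM in WT and between 4.51 and 4.61 RPKM in KO at day 25, and fell by 2.35 (SE 0.23, limma adjusted p 1.7e-08). *Ptpn11*, which encodes SHP2, fell by 0.98 (SE 0.11, limma adjusted p 1.4e-07), and *Frs2*, the adaptor of FGF receptors, by 0.70 (SE 0.17, limma adjusted p 0.00096). *Braf*, which encodes a RAF kinase, fell by 0.36 at day 25 (SE 0.09, limma adjusted p 0.0011). At day 11 *Ptpn11*, *Frs2* and *Braf* were higher in KO (0.705, 0.48 and 0.40, limma adjusted p 3.5e-05, 0.031 and 0.0011). *Frs2* was also higher at day 17 (0.65, limma adjusted p 0.0035), and *Ptpn11* and *Braf* were not called there. *Gab1* was not called at days 11 and 17 (0.48 and 0.03). *Sos2*, a RAS exchange factor, rose by 0.40 in the mean over days and had a difference of -0.22 at day 25 (limma adjusted p 0.29).

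Other inhibitors went both ways, with 4 called higher and 3 lower of 10 tested in the mean over days, and 3 higher and 4 lower at day 25, to be read against the same shares. *Spred1* and *Spred2* encode relatives of the sproutys that act on RAS and RAF. At day 25 *Spred1* had between 19.4 and 20.02 RPKM in WT and between 10.7 and 10.8 RPKM in KO and fell by 0.86 (SE 0.09, limma adjusted p 4.8e-08). *Spred2* had between 7.90 and 9.17 RPKM in WT and between 1.99 and 2.45 RPKM in KO and fell by 1.90 (SE 0.37, limma adjusted p 0.00011). At day 25 both relatives were thus lower in KO, as *Spry2* and *Spry4* were. At days 11 and 17 *Spred1* was also lower (log2 differences -0.50 and -0.58, limma adjusted p 0.00016 and 1.6e-05). *Spred2* was not called at those days (0.05 and -0.24, limma adjusted p 0.94 and 0.65). *Il17rd*, a membrane inhibitor of FGF signaling, fell by 1.084 at day 25 (SE 0.15, limma adjusted p 3.0e-06). At days 11 and 17 it was not called (-0.12 and -0.02). *Spry1* fell by 0.41 at day 25 (SE 0.18, limma adjusted p 0.044) and had a difference of -0.11 in the mean over days (limma adjusted p 0.24).

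The phosphatase genes related to *Dusp6* that were called in the mean over days or at day 25 were higher in KO. *Dusp9*, which encodes another ERK phosphatase, rose by 0.79 in the mean over days (SE 0.04, limma adjusted p 9.5e-14) and by 0.77 at day 25, from between 19.8 and 20.4 RPKM in WT to between 33.2 and 35.5 RPKM in KO. *Dusp4* rose by 0.94 at day 25 (SE 0.16, limma adjusted p 3.1e-05), from between 3.11 and 3.71 RPKM to between 6.13 and 7.09 RPKM. At day 11 it was lower in KO (log2 difference -0.76, limma adjusted p 0.00086). *Dusp5* rose by 0.63 in the mean over days and by 0.43 at day 25 (limma adjusted p 5.1e-09 and 0.0068).

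Of 13 other targets and early response genes tested, 6 rose and 1 fell in the mean over days, and 2 rose and 5 fell at day 25, to be read against the same shares of all genes. *Myc* had between 11.4 and 13.6 RPKM in WT and between 1.81 and 2.83 RPKM in KO at day 25 and fell by 2.41 (SE 0.32, limma adjusted p 1.6e-06). *Phlda1* fell by 1.25 at day 25 (SE 0.24, limma adjusted p 0.00010) and rose by 0.48 in the mean over days (SE 0.11, limma adjusted p 0.00062). *Ets2* fell by 0.80, *Jun* by 0.66 and *Elk4* by 0.64 at day 25, and *Junb* rose by 0.54. *Jun* was higher in KO in the mean over days (0.43, limma adjusted p 0.00014) and at day 17 (1.63, limma adjusted p 2.8e-07). *Ets2* was higher at days 11 and 17 (0.79 and 0.66, limma adjusted p 0.00031 and 0.0012). *Elk4* was not called at those days (-0.08 and -0.17). *Etv1*, the third PEA3-type factor, had differences of -0.03 in the mean over days and -0.05 at day 25 (limma adjusted p 0.65 and 0.71). *Egr2* was below the filter, at no more than 0.115 RPKM in any library. Of the 5 ephrin A genes, 4 rose in the mean over days, *Efna3* by 0.72, *Efna1* by 0.59, *Efna4* by 0.57 and *Efna2* by 0.23. *Efna5* fell by 2.71 at day 25 (SE 0.28, limma adjusted p 4.9e-08), from between 2.02 and 2.17 RPKM in WT to between 0.154 and 0.342 RPKM in KO. At day 11 *Efna5* was higher in KO (log2 difference 0.96, limma adjusted p 0.011).

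How the 8 genes varied with each other was described over the 34 WT and *Dnmt1* KO libraries, after the mean of the libraries of each day was subtracted. These points share days and depth, and no test was made. The mean of a day takes WT and KO together, so what remains holds the KO minus WT differences given above. The r values restate those differences in part and are no separate support for them. Pearson's r was 0.90 between *Spry2* and *Spry4*, 0.87 between *Spry4* and *Epha2*, 0.84 between *Dusp6* and *Epha2*, 0.82 between *Spry2* and *Epha2*, 0.81 between *Dusp6* and *Spry2* and 0.80 between *Dusp6* and *Spry4*. *Etv4* had an r of at most 0.26 with any other of the 8 genes, and *Etv5* had -0.72 with *Fgf4* and 0.54 with *Egr1*. *Egr1* was tested only because of its WT level at day 25, so its r is a description. *Dusp6*, *Spry2*, *Spry4* and *Epha2* thus had similar profiles over these libraries, and *Etv4* and *Etv5* differed from them.

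Among the tested genes outside the 8, the profiles most like *Spry4* were *Tcf4* (r = 0.93) and *Gm98* (r = 0.92), and those most like *Spry2* were *Grb10* (r = 0.90) and *Tcf4* (r = 0.89). *Epha2* was most like *Igf2* (r = 0.91) and *Foxp1* (r = 0.89), and *Dusp6* was most like *Glyatl3* and *Ankrd34a* (r = 0.79 each). *Etv5* was most like *Mkl2* and *Dag1* (r = 0.93 each) and *Etv4* like *Itpk1* (r = 0.90) and *Gbx2* (r = 0.86). *Fgf4* was most like *Chd1l* (r = 0.89) and *Bub1* (r = 0.88), and *Egr1* like *Itga5* (r = 0.86) and *Smad7* (r = 0.85). The values of *Egr1* are descriptions, since its WT level at day 25 brought it into the tested set.

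Levels are in RPKM and so per length, which allows genes to be ordered. At day 25 in WT, *Epha2* stood first with 56.9 ± 1.42 RPKM, then *Dusp6* with 41.8 ± 0.0180 RPKM and *Fgf4* with 33.9 ± 0.693 RPKM (SD, n = 2). *Spry4* (26.3 ± 1.59 RPKM), *Etv5* (25.19 ± 0.0421 RPKM), *Etv4* (24.2 ± 0.381 RPKM) and *Spry2* (24.1 ± 1.56 RPKM) followed, and neighbours among these 4 were not separated beyond their spread except *Etv5* and *Etv4*. *Egr1* was last with 1.36 ± 0.00991 RPKM (SD, n = 2). In KO at day 25 *Fgf4* stood first with 39.4 ± 2.60 RPKM and *Etv4* second with 26.03 ± 0.0951 RPKM, followed by *Dusp6* with 23.6 ± 1.03 RPKM and *Epha2* with 21.5 ± 1.54 RPKM (SD, n = 2). *Etv5* (17.22 ± 0.476 RPKM), *Spry2* (12.1 ± 1.002 RPKM) and *Spry4* (7.28 ± 1.04 RPKM) came next, and *Egr1* was last with 0.299 ± 0.00619 RPKM (SD, n = 2). The libraries of neighbours in the KO order did not overlap.

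The last comparison set the 1 *Dicer* KO library beside the 7 WT libraries in the same high range of gene-read share, with no test and no replicate check. *Spry2* had 8.95 RPKM in *Dicer* KO and between 18.5 and 25.24 RPKM in WT. It was the 1 gene of the 8 more than 1 log2 unit below the WT range, where 3.74% of all genes were that far below and 6.78% that far above. *Spry4* had 6.25 RPKM against between 11.7 and 27.4 RPKM, *Etv4* 9.95 RPKM against between 16.4 and 24.5 RPKM, *Fgf4* 25.96 RPKM against between 33.4 and 50.4 RPKM and *Dusp6* 24.1 RPKM against between 26.4 and 41.8 RPKM. These 4 genes also lay below every WT library of this set, by less than 1 log2 unit. The share of all genes below every WT library by any amount was not determined, so nothing is read from their number.

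*Epha2* had 53.8 RPKM in *Dicer* KO, inside the WT range of 16.1 to 57.9 RPKM and above all WT libraries but the 2 of day 25. *Etv5* had 20.9 RPKM (WT between 11.4 and 25.22) and *Egr1* 0.863 RPKM (WT between 0.218 and 1.37), both inside the range. The log2 difference from the mean of the 7 WT libraries was -1.43 for *Spry4*, -1.33 for *Spry2*, -1.02 for *Etv4*, -0.72 for *Fgf4*, -0.53 for *Dusp6*, 0.29 for *Etv5*, 0.66 for *Egr1* and 0.85 for *Epha2*. The median was -0.62 over the 8 genes and 0.04 over all genes. Against the mean of all 17 WT libraries, which include those of low gene-read share, the difference was 0.81 for *Dusp6* and 0.14 for *Spry4*, of the opposite sign, and -0.32 for *Spry2*. None of the 8 genes was then more than 1 log2 unit below all WT libraries (1.21% of all genes). With a pseudocount of 1 RPKM none was (1.2% of all genes), and after median centring *Spry2* and *Spry4* were (5.42% of all genes). The sum of 12 fibroblast markers was 155 RPKM in this library, of which *Acta2* gave 118 RPKM, and at most 4.08 RPKM in WT of days 11, 17 and 25. The sum of trophoblast markers was 129 RPKM against between 36.99 and 72.1 RPKM in those WT libraries, and that of primed epiblast markers was 13.2 RPKM against between 19.2 and 61.7 RPKM. The part of these markers' cells in the *Dicer* KO values was not tested.

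**Figure D5:**
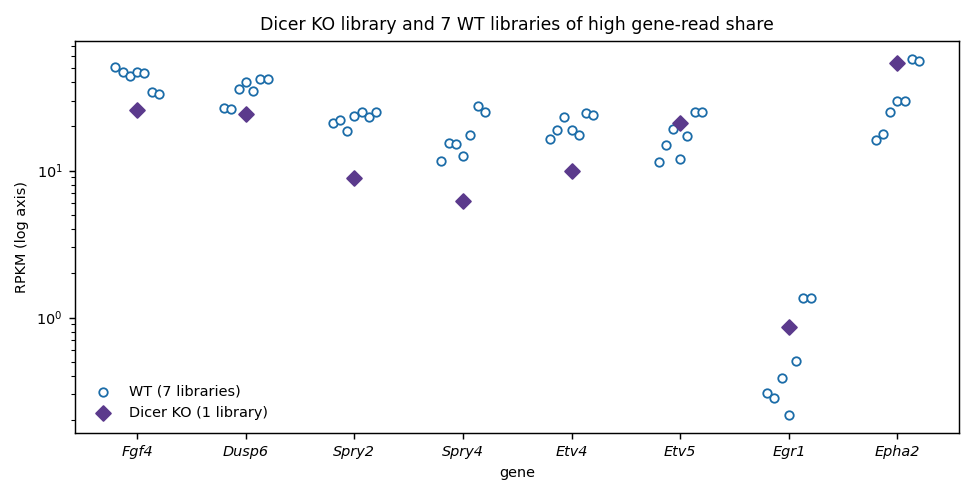
RPKM (log axis) of the 8 genes in the *Dicer* KO library (purple diamonds) and in 7 WT libraries with a high share of reads in exons (open blue circles). The *Dicer* KO library lies below all 7 WT libraries for *Fgf4*, *Dusp6*, *Spry2*, *Spry4* and *Etv4* and inside their range for *Etv5*, *Egr1* and *Epha2*. The share of all genes below all 7 WT libraries was not determined.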

How the data were processed

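Total RNA-seq of 35 ESC libraries was analysed. The authors trimmed reads (Trim Galore 0.3.5), mapped them to NCBIM37 with TopHat2 2.0.11, removed alignments of low quality and counted per gene with SeqMonk, as the methods and the submitters' processing notes give. The deposited values are RPKM on a linear scale, 1 column per library, although the methods name log2 RPM. Groups came from the labels.

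Exon lengths of GENCODE vM1 turned values back into reads, which gave the depth: under 20 reads, 99.62% to 99.80% of values lay within 0.1 of a whole read. The 11615 genes whose RPKM exceeded 1 in 2 or more libraries (of 34, *Dicer* KO aside) entered limma 3.58.1 (R 4.3.3; lmFit, then eBayes with trend) on log2(RPKM + 0.1), which understates changes of low genes. The model had a mean for each genotype and day and 1 term for the third day 1 pair, whose gene-read share differs and would otherwise enter the spread between replicates. The spread was pooled over all groups, so an SE is not the spread of that day's own libraries. Replicates agreed least in KO of day 11 (Pearson's r 0.969) and WT of day 17 (0.989). The other groups had between 0.991 and 0.995, the third day 1 pair aside. A Benjamini-Hochberg adjusted p below 0.05 over all genes tested was called. The fit was tested on simulated data.

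The 8 genes, the pathway and marker lists and the tests were chosen with earlier results of these data known. Named were the 8 genes, pathway genes called in the mean over days or at day 25 (at most 6 per role, by size), 7 relatives of the 8 genes whatever their result, and for each of the 8 the 2 genes of highest Pearson r. One primed epiblast symbol, 1 neural symbol and *Spry3* matched no row. One gene that this rule names is not reported here. Of the 8 genes, 5 had an entry in the RefSeq promoter table that was used. Python 3.11.15 with numpy 2.4.6, pandas 2.3.3 and matplotlib 3.10.9 was used. Alternatives were another pseudocount, no filter, median centring, no term for the third day 1 pair, that pair left out, only the groups compared, limma's voom on recovered reads, a replicate block, each library left out in turn, other sets of days, and for *Dicer* KO all 17 WT libraries.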

Additional observations from a re-analysis of the deposited data

Results flagged for a closer look

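The KO effect at day 25 was compared with the mean KO effect of days 11 and 17, on the log2(RPKM + 0.1) scale, by the interaction contrast of the limma fit, and differed for 5 genes and for *Egr1*. The differences were 0.51 for *Fgf4* and 0.50 for *Etv4*, for which the effect was higher at day 25, and -0.42 for *Dusp6*, -1.21 for *Etv5*, -2.03 for *Egr1* and -0.95 for *Epha2*, for which it was lower. Of all genes tested, 30.2% were higher and 30.5% lower in this contrast. *Egr1* was tested only because of its WT level at day 25, so its value is a description.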

How the results depend on the processing

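No called value of the 8 genes turned to the opposite direction under any alternative of the limma comparisons. Values that were not called did change sign, among them *Egr1* in the mean over days, *Egr1* at days 11 and 17 and *Spry4* in KO day 25. A pseudocount of 1 RPKM left 102 of 104 values on their side of the threshold, median centring 98 of 104, no filter 92 of 96, leaving out the third day 1 pair 93 of 96, only the groups compared 85 of 96, voom 94 of 96, leaving out each library in turn 577 of 624, and no term for that pair 55 of 96, with 41 calls lost. The number of the 8 genes called changed by more than 1.5 times as follows (reported number in brackets); the cause was not tested.

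With no term for the third day 1 pair, none was called higher at day 1 (1), 6 (1), 9 (2), 11 (1), 17 (1) and 25 (1), in the mean over days (1), in KO day 25 (2) and in the difference of effects (2); the numbers lower were 0 at days 3 (2), 6 (2), 9 (2), 11 (5), 17 (6) and in KO day 25 (1), 2 at day 25 (6), 3 in the mean (5) and 2 in the difference of effects (4), and 3 were higher in WT day 25 (6). With only the groups compared, 0 were higher at day 1 and at day 11, 4 lower at day 3, 1 lower at day 11 and 0 lower in KO day 25. At day 1 the number higher was 0 with no filter and with day 25 left out of the fit, and 2 with the third pair left out or under voom. At day 9 it was 1 with no filter and with median centring. In the mean over days it was 0 with median centring and with day 6 as labelled. In KO day 25 the number lower was 0 with no filter, with the third day 1 pair left out and with day 6 left out of the fit. Leaving out days 6 or 25 from the fit was chosen after seeing the data. Numbers at day 25, in WT day 25 and in the difference of effects include *Egr1*.

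Leaving out 1 library in turn gave between 0 and 2 higher at day 1, between 1 and 2 lower at day 3, between 0 and 0 higher at day 9, between 0 and 2 higher and between 1 and 4 lower at day 11, between 0 and 1 higher at days 17 and 25, and between 0 and 2 lower in KO day 25. For *Dicer* KO the number more than 1 log2 unit below WT (1) was 0 against all 17 WT libraries, 2 with median centring and 0 with a pseudocount of 1 RPKM.

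Over all genes, counts higher and lower with no term for the third day 1 pair (reported counts in brackets) were 70 and 7 at day 3 (859 and 442), 79 and 251 at day 6 (1000 and 2143), 286 and 96 at day 9 (1940 and 1220), 507 and 146 at day 11 (2636 and 1430), 1061 and 143 at day 17 (3352 and 1319), 1115 and 1315 at day 25 (4578 and 3013), 1528 and 668 in the mean (4349 and 2370), 1914 and 1318 in WT day 25 (4080 and 3867), 314 and 791 in KO day 25 (2882 and 2674) and 518 and 1435 in the difference of effects (3509 and 3548). With only the groups compared they were 1324 and 829 at day 3, 268 and 43 at day 11, 2191 and 681 at day 17 and 1346 and 1245 in KO day 25, and 1842 were lower at day 9. With median centring 665 were lower at day 3, 1561 higher at day 6, 1714 higher against 2375 lower for day 11, 2031 against 2970 for day 17, and 3666 lower in the mean. At day 1 (14 and 3) they ranged from 0 to 25 higher and from 0 to 8 lower.

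Apart from the third pair of day 1, replicate numbers did not pair the libraries. WT and KO libraries of the same number had correlated deviations of -0.016 at day 0, 0.26 at day 11 and -0.159 at day 17. At day 1 the values were 0.83, 0.78 and 0.91 for replicates 1, 2 and 3, and -0.13 for replicates 1 and 2 without the third pair. With a replicate block the number higher was 0 at day 1 and 1 at day 9, and the number lower at day 11 was 3.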
